A study of Danio rerio with 40 samples.

Results

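CXCL12, igf2b and MDK encode 3 proteins that cells release as signals, and their transcripts were followed here through single cells sorted from the zebrafish heart. The genes were chosen as the rows whose symbol is CXCL12 or igf2b, ignoring case, together with the midkine copy ENSDARG00000036036. The first criterion found 1 row for each symbol, ENSDARG00000037116 for CXCL12 and ENSDARG00000033307 for igf2b. The group thus has 3 of the 33737 genes in the table.

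The 40 libraries, numbered 1 to 40, are each labelled as 1 cell from ventricles of adult EK strain fish aged 6 months. Cells were freed with Liberase DH at 37 °C, sorted for green fluorescence of the tcf21:nucEGFP reporter and for exclusion of propidium iodide, and captured singly on the Fluidigm C1 platform. All cells share the reporter and form 1 group: no injury, treatment, control, animal or batch is named. The cells are therefore described as 1 sample, with no test, and each standard deviation is the spread between its cells. The cells studied are those in which the tcf21 promoter drives the reporter, so epicardial cells without it were not sampled.

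CXCL12 is a chemokine that draws cells bearing the receptor CXCR4, while the receptor ACKR3 takes it up and removes it. igf2b encodes an insulin-like growth factor, a hormone-like peptide that acts through the tyrosine kinase receptors IGF1R and INSR and is cleared by IGF2R. Midkine, the product of MDK, is a growth factor that binds heparan sulfate and is held by syndecans and receptor-type phosphatases at the cell surface. In the zebrafish heart the epicardium is known as a source of secreted signals for muscle and vessel cells. Zebrafish carry further copies of these genes, of which cxcl12b, igf2a and another MDK row (ENSDARG00000020708) are in the table.

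Expected reads per cell ranged from 340293 to 5695770. A gene was called detected at 5 or more expected reads, which gave 161 to 10792 genes per cell, and co-expression was described in the 25 cells that reached 2000 genes, called kept cells. Levels are expected counts scaled to a total of 1000000 per cell (CPM). They are not divided by transcript length, so levels of different genes are not compared. The label was checked with TCF21, the gene behind the reporter, which was at 2.38 CPM or less in cells 7, 11 and 33. Genes of the cardiomyocyte list took up 23.2% of all reads of cell 7 and 18.9% of those of cell 33, neither of which was kept. Macrophage genes took up 3.22% in the kept cell 11, and cardiomyocyte genes 1.46% in the kept cell 18. Cell 40 had more genes than any other, with the next cell at 4119.

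CXCL12 transcripts were either plentiful or nearly missing. Among the 25 kept cells, CXCL12 was highest in cell 16 at 3881.6 CPM, cell 39 at 3552 CPM, cell 21 at 2294 CPM, cell 38 at 2246 CPM and cell 19 at 1795 CPM. It followed in cell 3 at 1332 CPM, cell 37 at 961.7 CPM, cell 40 at 612.2 CPM, cell 18 at 392.03 CPM, cell 35 at 293.3 CPM and cell 31 at 109.8 CPM. These 11 cells formed the upper group. The other 14 kept cells lay at or below 12.3 CPM, the level of cell 5, and CXCL12 had 0 reads in cells 2, 10, 12 and 22. No cell of all 40 had a CXCL12 level between 12.3 and 109.8 CPM. Of the 15 cells not kept, cells 23, 30 and 36 were in the upper group, at 811, 556.9 and 203.4 CPM, and the others had at most 9.68 CPM. The 3 cells of highest level held 55.6% of the summed CPM of kept cells.

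At 5 reads CXCL12 was present in 16 of the 25 kept cells, a share of 64.0% with a 95% Wilson interval of 44.5 to 79.8%. At 50 CPM or more it was present in 11 (44.0%, 26.7 to 62.9%). The difference is made by cells 5, 9, 11, 13 and 26, with 5 to 44 reads. Small numbers of CXCL12 reads also occurred in cells that carried markers of other cell types: there were 5 in cell 33 and 1 in cell 7, both rich in cardiomyocyte transcripts, and 8.98 in cell 11, rich in macrophage transcripts. Counts of cells are therefore given at 50 CPM beside those at 5 reads. The mean was 699.8 ± 1160.1 CPM (SD over 25 cells) with a median of 2.71 CPM.

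The kept cells that led in igf2b were not those that led in CXCL12, though some cells high in igf2b also had CXCL12. Among kept cells igf2b led in cell 25 at 2937 CPM and cell 35 at 1596 CPM, followed by cell 15 at 598.5 CPM, cell 2 at 519.4 CPM, cell 8 at 447.9 CPM and cell 40 at 401.8 CPM. Cells 37, 38, 9 and 11 had 316.5, 250.8, 156.3 and 96.5 CPM of igf2b. Cells 3 and 26, at 56.3 and 55.6 CPM, lay just above 50 CPM. The 13 other kept cells had at most 23.2 CPM, with 0 reads in cells 12, 19 and 31. The highest igf2b level of all 40 cells was that of cell 23, which was not kept because it had 1885 genes, at 5233 CPM. CXCL12 was at 811 CPM in cell 23, 293.3 CPM in cell 35 and 612.2 CPM in cell 40. In cells 25, 15, 2 and 8 it was at most 1.16 CPM.

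The count of kept cells with igf2b was 16 of 25 at 5 reads (64.0%, 44.5 to 79.8%) and 12 at 50 CPM (48.0%, 30.03 to 66.5%). Its mean was 299.01 ± 649.8 CPM with a median of 23.2 CPM. Cell 25 alone held 39.3% of the summed igf2b level of kept cells, and without it the mean was 189.1 CPM. In cell 11, where TCF21 was at 0.603 CPM and macrophage markers were high, igf2b had 320 reads (96.5 CPM). The closely related igf2a had 0 reads in all 40 cells, which allows a share of up to 7.5% of cells by a limit of 3 cells. That limit is used here, in place of a Wilson interval, for a gene detected in 0 cells.

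MDK was the most widely detected of the 3 genes. It passed 5 reads in 22 of 25 kept cells (88.0%, 70.04 to 95.8%) and 50 CPM in 17 (68.0%, 48.4 to 82.8%). MDK led in cell 13 at 3113 CPM, cell 15 at 2138 CPM, cell 21 at 1008 CPM and cell 40 at 988.3 CPM. Cells 19, 31, 18, 38 and 5 had 914.3, 872.5, 824.5, 633.8 and 628.6 CPM. A further 8 cells lay between 53.3 and 457.1 CPM, and the last 8 between 0.265 and 29.1 CPM. The range that was empty for CXCL12 thus held levels of MDK. Cell 14, not kept, had the highest MDK level of all 40 cells, 4479 CPM. The mean in kept cells was 513.3 ± 742.5 CPM with a median of 183.5 CPM.

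**Figure D1:**
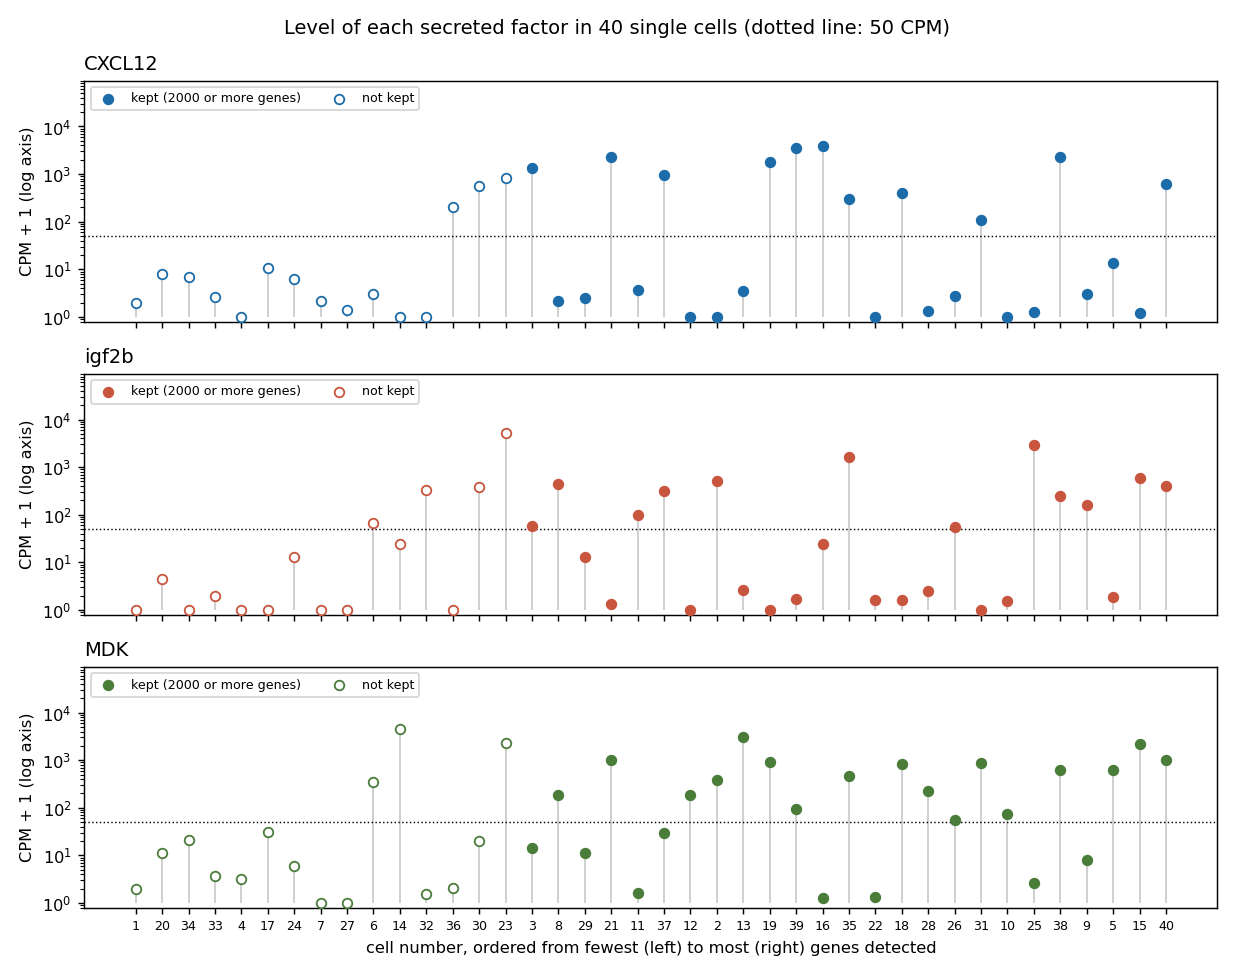
Level of CXCL12, igf2b and MDK in each of 40 cells, as CPM + 1 on a log axis, with cells ordered by genes detected. Filled points are the 25 kept cells, open points the 15 others, and the dotted line marks 50 CPM; CXCL12 points leave the range from 12.3 to 109.8 CPM empty, while MDK points spread across it.

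The cells that carried these signals were also asked how many they carried. At 5 reads, all 3 transcripts were detected in 8 of 25 kept cells (32%, 17.2 to 51.6%), exactly 2 in 14 (56%, 37.1 to 73.3%), 1 in 2 and none in 1, cell 22. At 50 CPM, all 3 were found in 3 cells (12%, 4.17 to 29.96%), which were cells 35, 38 and 40. Of these, cell 40 had 10792 genes detected, and whether it held more than 1 cell was not tested. Without cell 40, all 3 were detected at 5 reads in 7 of 24 cells (29.2%). At 50 CPM, exactly 2 were found in 11 of the 25 kept cells (44.0%, 26.7 to 62.9%), 1 in 9 (36%, 20.2 to 55.5%) and none in 2, cells 22 and 29. Of the cells with 2 at that level, 5 had CXCL12 and MDK, 4 had igf2b and MDK and 2 had CXCL12 and igf2b. MDK stood alone in 5 cells, igf2b in 3 (cells 9, 11 and 25) and CXCL12 in 1, cell 16. Among the cells not kept, cell 23 also had all 3 at 50 CPM.

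**Figure D2:**
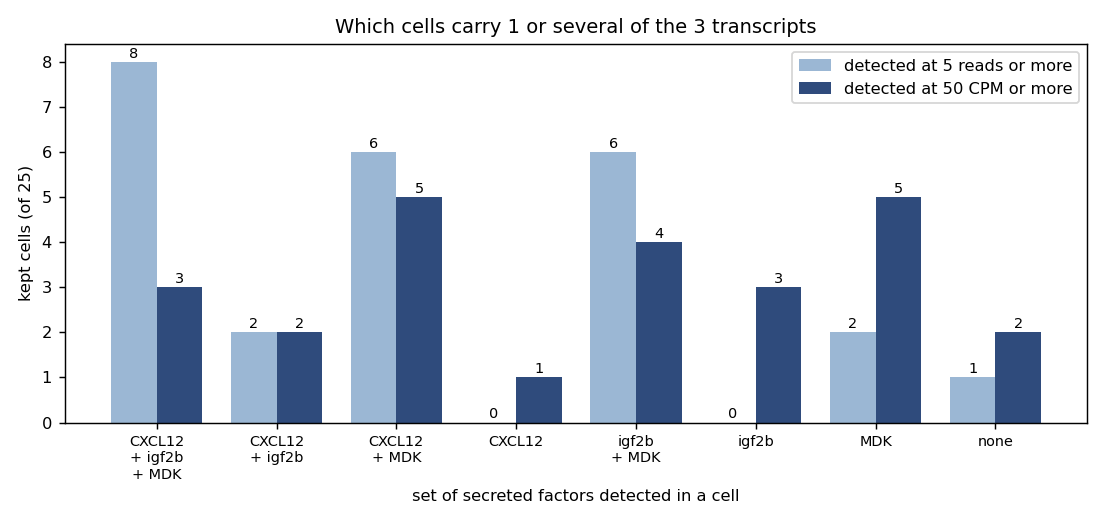
Number of the 25 kept cells with each set of the 3 transcripts, at 5 or more expected reads (light bars) and at 50 CPM or more (dark bars). All 3 transcripts were found together in 8 cells at 5 reads and in 3 cells at 50 CPM.

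The share of cells carrying one transcript was compared between cells with and without another. At 50 CPM, igf2b was found in 5 of the 11 cells with CXCL12 (45.5%, 21.3 to 71.99%) and in 7 of the 14 without it (50%, 26.8 to 73.2%). MDK was found in 8 of the 11 cells with CXCL12 (72.7%, 43.4 to 90.3%) and in 9 of the 14 without (64.3%, 38.8 to 83.7%). MDK was found in 7 of 12 cells with igf2b (58.3%, 31.95 to 80.7%) and in 10 of 13 without (76.9%, 49.7 to 91.8%). All of these intervals overlap. Overlap of intervals is not a test of a difference, and whether the shares differ was not tested. In the full set of 40 cells, igf2b was found in 50% of the 14 cells with CXCL12 and 34.6% of the 26 without, and MDK in 64.3% and 42.3% of them. MDK was found in 56.3% of the 16 with igf2b and 45.8% of the 24 without. The directions for CXCL12 with igf2b and for igf2b with MDK were thus opposite to those in kept cells, and these intervals overlap too.

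The levels of the 3 genes were only weakly related from cell to cell. Over the 25 kept cells, Spearman's rho was -0.102 for CXCL12 and igf2b, 0.163 for CXCL12 and MDK, and -0.147 for igf2b and MDK. With each cell left out in turn these ranged from -0.219 to -0.028, from 0.088 to 0.315 and from -0.260 to -0.070. Over all 40 cells the values were 0.062, 0.240 and 0.213, so both negative ones changed sign. The number of the 3 transcripts at 50 CPM had a rho of 0.547 with genes detected over all 40 cells and 0.099 over kept cells, and the part of gene number in the values over 40 cells was not tested. All cells share 1 sample and the levels share each cell's total, so these are descriptions.

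**Figure D3:**
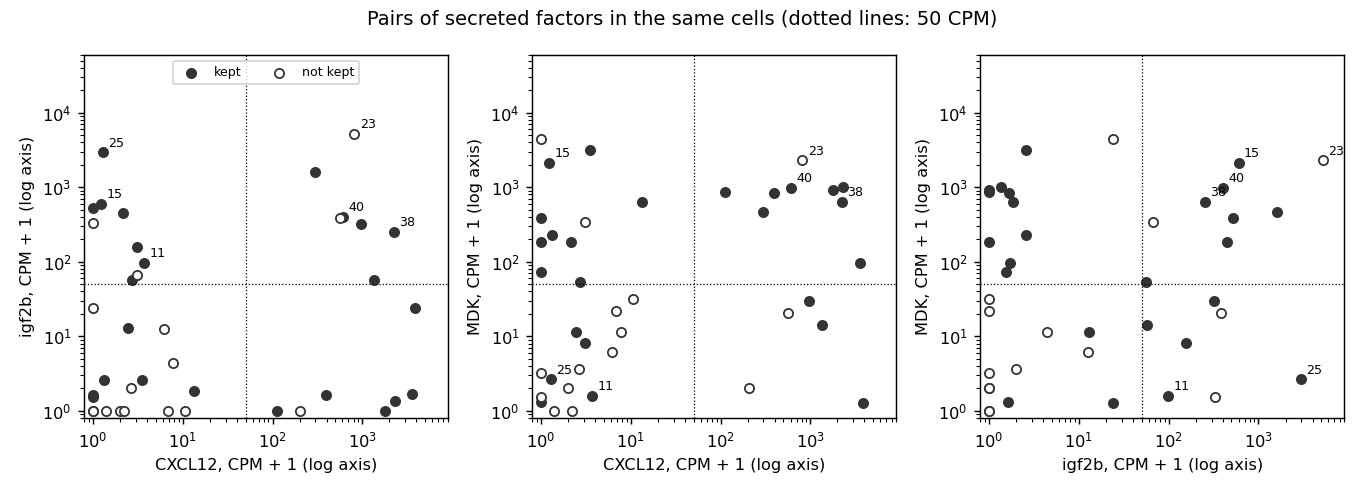
Levels of the 3 pairs of genes in the same cells, as CPM + 1 on log axes, with dotted lines at 50 CPM. Filled points are kept cells and open points cells not kept; kept cells lie on both sides of both lines in every panel, and cells 38 and 40 lie above 50 CPM for both genes in all 3 panels.

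The paralogs of CXCL12 and MDK were distributed differently from the members. cxcl12b (ENSDARG00000055100), another ligand of the same receptors, was essentially a transcript of 1 cell: cell 25 had 1683 CPM, cell 40 had 17.5 CPM, cell 5 had 2.52 CPM, and no other cell reached 5 reads. In cell 25 CXCL12 was at 0.279 CPM and igf2b at its highest kept level. No cell had both CXCL12 and cxcl12b at 50 CPM. Cell 25 also had 2583 CPM of ALDH1A2, which encodes an enzyme of retinoic acid synthesis, and 2465 CPM of podxl, which encodes a surface sialomucin. Of the other cells with ALDH1A2 above 50 CPM, cell 15 had 3939.6 CPM of it and 0.229 CPM of CXCL12, and cell 40 had 433.3 and 612.2 CPM. igf2b passed 50 CPM in all of these 3 cells.

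The other MDK row reached 50 CPM in as many kept cells as the member but was detected in fewer at 5 reads. ENSDARG00000020708 passed 5 reads in 19 of the 25 (76.0%, 56.6 to 88.5%) and 50 CPM in 17, at a mean of 588.7 ± 696.1 CPM. Both copies reached 50 CPM in 13 kept cells, the member alone in 4 (8, 13, 19 and 26), the other copy alone in 4 (9, 22, 25 and 37) and neither in 4 (3, 11, 16 and 29). In cell 13 the member had 3113 CPM and the other copy 27.4 CPM, while cell 37 had 29.1 and 2634 CPM. The rho of the 2 copies was 0.136 over kept cells and 0.349 over all 40. Neither row could be assigned to mdka or mdkb from the tables used here.

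Few cells carried transcripts of the CXCL12 receptors. CXCR4 (ENSDARG00000041959) was detected in 1 cell of 40, cell 40, at 166.4 CPM, and its other copy in 0 of 40, which allows up to 7.5%. ACKR3 (ENSDARG00000058179) was detected in 6 of 25 kept cells and in 10 of all 40, and reached 50 CPM in 8, its highest levels being those of cell 23 (633.4 CPM) and cell 10 (534.8 CPM). ACKR3 and CXCL12 were both at 50 CPM in cells 23, 30, 36, 38 and 40, of which only 38 and 40 were kept. Without the member, the list for this pathway held 6 genes. Of these, 2 were seen in 10 to 90% of kept cells, 2 more rarely and 2 never. For all 33737 genes the same bands held 20.4%, 21.8% and 56.4%, with 1.43% seen in 90% or more.

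Of 14 further chemokine and chemokine receptor genes, 1 was seen in 90% or more of kept cells, 4 in 10 to 90%, 3 more rarely and 6 never. Only 14 of the 32 symbols on this list were found, so the family is not fully covered. The same bands held 1.43%, 20.4%, 21.8% and 56.4% of all genes in the table. cxcl18b, a chemokine gene known from zebrafish inflammation, was detected in 25 of 25 and reached 50 CPM in 22, at 1807 ± 2846.0 CPM. ccl25b was detected in 18 of 25 at 860.3 ± 1643 CPM, and its rho with CXCL12 was 0.341. ACKR4 (ENSDARG00000040133), a scavenger receptor for CCL chemokines, was detected in 11 and reached 50 CPM in 7. CXCL14 was detected in 4, with 1445 CPM in cell 9.

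For igf2b, the signalling receptors were found in few cells. The 2 IGF1R copies were detected in 2 kept cells each, and 1 cell passed 50 CPM, cell 29 with 407.4 CPM of ENSDARG00000027423. The 2 INSR copies were detected in 2 kept cells between them, 9 and 40, at 50.8 and 64.1 CPM. IGF2R, the clearance receptor, was detected in 6 of 25 kept cells. All of these had igf2b at 5 reads, as did 16 of the 25 kept cells. IGF2R reached 50 CPM in cells 11, 15, 26 and 28, and 3 of these had igf2b at that level. In cell 28 igf2b was at 1.57 CPM. The highest IGF2R level was 439.3 CPM, in cell 11, which was rich in macrophage transcripts. IRS1, an adaptor that relays the receptor signal, was detected in 12 kept cells but reached 50 CPM in 2, and IRS2 (ENSDARG00000075282) was detected in 10 and reached 50 CPM in 8. The other IRS2 copy (ENSDARG00000037099) was detected in 3, cells 15, 35 and 40, and reached 50 CPM in each. IGF1, igf3, ins and insb were detected in 0 of 25 kept cells and in 0 of 40. Of the 13 genes of this list without igf2b, 4 were seen in 10 to 90% of kept cells, 4 more rarely and 5 never. Over all genes in the table these bands held 20.4%, 21.8% and 56.4%.

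The list of genes that bind or release insulin-like growth factors held 17, among them mRNA-binding proteins of IGF2. Of these, 5 were seen in 10 to 90% of kept cells, 4 more rarely and 8 never, beside 20.4%, 21.8% and 56.4% of all genes in the table. HTRA1 (ENSDARG00000014907), a secreted protease that cleaves IGF binding proteins, was seen in the most, 18 of 25, at 190.8 ± 334.5 CPM. IGFBP5 (ENSDARG00000025348) was detected in 3, with 1388 CPM in cell 15. IGFBP2 (ENSDARG00000052470) was detected in 2, with 341.8 CPM in cell 16. IGF2BP2 was detected in 7, with 1047 CPM in cell 25, the kept cell of highest igf2b, and reached 50 CPM in 1 other cell. The low-level rows igf2bp1 and IGF2BP3 were detected in 3 each and reached 50 CPM in none.

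Among genes of midkine binding, sdc4 was found in every kept cell. sdc4, a syndecan whose heparan sulfate chains can bind midkine, was detected and reached 50 CPM in 25 of 25 kept cells. Its level was 10203 ± 7195 CPM. sdc2 was detected in 11 and reached 50 CPM in 7, of which 6 had MDK at 50 CPM, beside 17 of all 25 kept cells. The exception was cell 3, the kept cell of highest sdc2 at 450.1 CPM, with MDK at 13.2 CPM. Nucleolin, encoded by ncl, is chiefly a nucleolar protein that has also been described as a midkine binding protein. Its transcript was detected in 17 and reached 50 CPM in 14, of which 10 had MDK at 50 CPM. PTPRZ1 (ENSDARG00000020871), a receptor-type phosphatase, was detected in 5, with 403.6 CPM in cell 5. ALK, a receptor tyrosine kinase, was detected in 14 kept cells but never above 16 CPM. Of the 13 genes of this list without the member, 1 was seen in 90% or more of kept cells, 6 in 10 to 90%, 1 more rarely and 5 never. For all genes in the table the shares were 1.43%, 20.4%, 21.8% and 56.4%.

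notch2, a receptor gene on the midkine list, reached 50 CPM only in cells in which CXCL12 was below 50 CPM. It was detected in 15 kept cells and reached 50 CPM in 4, with 3514 CPM in cell 2, 1387 CPM in cell 10, and lower levels in cells 11 and 15. CXCL12 was at 0, 0, 2.71 and 0.229 CPM in these cells, of which cell 11 was rich in macrophage transcripts. In all, 14 of the 25 kept cells had CXCL12 below 50 CPM. notch2 is also 1 of the 5 genes of lowest rho with CXCL12 given below, so these levels are not separate evidence. The rho of notch2 was -0.608 with CXCL12, 0.352 with igf2b and -0.187 with MDK. Its rho with CXCL12 was -0.377 when all 40 cells were used.

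**Figure D4:**
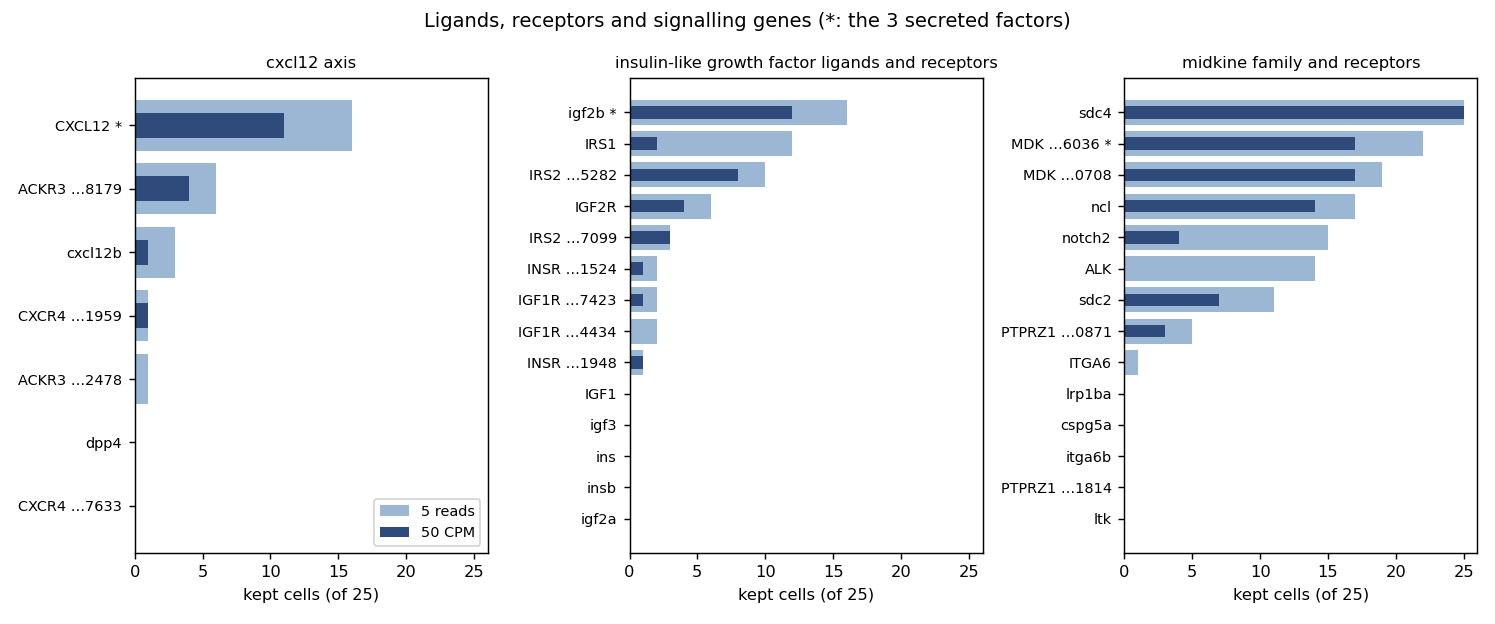
Number of the 25 kept cells in which each ligand, receptor or signalling gene of the 3 pathways was detected at 5 reads (light bars) and at 50 CPM (dark bars). Asterisks mark the 3 secreted factors, the last 4 digits of the gene identifier separate copies, and CXCR4 reached 1 cell beside 16 for CXCL12 at 5 reads.

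Every gene with a mean of at least 10 CPM, detected in at least 20% of kept cells, was then ranked by its Spearman's rho with each member over the 25 kept cells. This left 3302 genes, of which 2768 have a symbol. Of the rho values, 95% lay between -0.436 and 0.430 with CXCL12. The same range was -0.332 to 0.453 with igf2b and -0.285 to 0.452 with MDK. The highest of so many values are extremes by construction, and no gene was tested. Counts of cells at 50 CPM given below for ranked genes come from the same levels that ranked them, so they are not separate support. Of the 25 kept cells, 11 had CXCL12, 12 had igf2b and 17 had MDK at 50 CPM. Only genes with a symbol are listed, so rows without one are left out of both ends.

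The highest rho with CXCL12 of all ranked genes, 0.680, was that of a row without a symbol. The 10 highest genes with a symbol were nfil3-6 (0.651), HNRNPDL (0.638), SNX17 (0.637), CBX3 (0.620), pcolcea (0.620), SERBP1 (0.610), CLU (0.607), prx (0.603), ccdc86 (0.595) and JAGN1 (0.595). pcolcea encodes an enhancer of procollagen processing, and was at 50 CPM in 15 kept cells, among them 10 of the 11 with CXCL12 at that level. It had 6299 CPM in cell 16, 3580 CPM in cell 21 and 596.8 CPM in cell 39, beside 967.2, 1.63, 0.344 and 1523 CPM in the 4 kept cells with 0 CXCL12 reads (2, 10, 12 and 22). The groups thus overlapped. CLU, which encodes the secreted chaperone clusterin, was at 50 CPM in 12 cells, 9 of them with CXCL12, and was highest in cells 3 and 16 at 12830 and 12614 CPM. nfil3-6, which encodes a leucine zipper transcription factor, was at 50 CPM in 7 cells, 5 of them with CXCL12 at that level. Cells 19 and 21 had 2846 and 2125 CPM of it. Cell 11, with CXCL12 at 2.71 CPM, had 903 CPM of it. Over all 40 cells the rho of these 10 genes was 0.466 to 0.596. Of them, CBX3 and prx were detected in only 6 kept cells each and JAGN1 in 7.

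Genes that ran opposite to CXCL12 were as far from 0. The 5 lowest with a symbol were PLK3 (-0.709), HSPA9 (-0.670), crip1 (-0.617), CISH (-0.616) and notch2 (-0.608). HSPA9, a heat shock protein 70 of mitochondria, was at 50 CPM in 6 kept cells, none of which had CXCL12 at that level. CISH, an inhibitor of cytokine receptor signalling, was at 50 CPM in 10, of which 1 had CXCL12. PLK3, a kinase of stress responses, was at 50 CPM in 18, of which 5 had CXCL12, and was highest in cell 29 at 8878 CPM. The values were weaker over all 40 cells, -0.543 for PLK3 and -0.432 for HSPA9.

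For igf2b, 7 of the 10 highest genes with a symbol were detected in only 5 to 8 of the 25 kept cells. The 10 were nolc1 (0.629), lgals2a (0.628), arpc4l (0.617), fbxo6.3 (0.609), DLD (0.607), cflara (0.607), rhebl1 (0.605), MT-ND3 (0.572), si:ch211-250c4.4 (0.567) and golga7 (0.567), and 1 row without a symbol ranked among them. lgals2a, a galectin gene, was detected in 13 of 25 and reached 50 CPM in 9, of which 8 had igf2b at 50 CPM, and cells 35 and 25 had the most, 855.3 and 698.4 CPM. rhebl1, which encodes a small GTPase related to Rheb, an activator of growth signalling, was at 50 CPM in 5 cells, all of which had igf2b at that level. The lowest with a symbol were FOSL1 (-0.556), crema (-0.552), homeza (-0.526), SLC12A4 (-0.519) and, at -0.513, a gene named only by its clone. FOSL1 and crema encode transcription factors of the AP-1 and cAMP response families. Over all 40 cells the rho of the 10 highest genes ran from 0.102 for MT-ND3 to 0.514 for arpc4l, and FOSL1 stood at 0.158. None of the 10 highest genes was among the 10 highest there, where 2410 genes passed the same filter. Over 40 cells this filter asks for detection in more cells, so a gene can drop out before it is ranked.

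Among genes with a symbol, the highest rho with MDK was that of ctsla (0.678), which encodes the lysosomal protease cathepsin L. A row without a symbol came higher, at 0.706, and 2 more ranked among the 10 named here. ctsla was at 50 CPM in 17 kept cells, 14 of them with MDK at that level. Its highest levels, 3908 and 2652 CPM, were in cells 13 and 15, the 2 kept cells of highest MDK. Cell 3 followed with 2448 CPM of ctsla, but had MDK at 13.2 CPM. These levels also ranked the gene, so they are not separate support. The others of the 10 highest were cox6c (0.641), PAMR1 (0.639), WFDC1 (0.629), SYPL2 (0.590), PPP3R1 (0.580), TPI1 (0.576), CLCN5 (0.575), si:dkey-19n13.5 (0.575) and os9 (0.564). WFDC1, a secreted protein gene, was at 50 CPM in 6 cells, all with MDK at 50 CPM. It had 1519 CPM in cell 13 but 0.914 CPM in cell 15. Of these 10 genes, PAMR1 and WFDC1 were detected in only 8 kept cells each and SYPL2 in 7. PPP3R1, CLCN5 and os9 were detected in only 5 each. SYPL2, PPP3R1, TPI1 and CLCN5 each share their symbol with another row. The lowest with a symbol were znf385d (-0.504), cst14a.2 (-0.490), camkk2 (-0.480), MSMO1 (-0.460) and ARRDC3 (-0.448). Over all 40 cells the rho of the 10 highest genes ran from 0.151 for cox6c to 0.502 for PPP3R1, with ctsla at 0.457, and camkk2 stood at 0.001. None of the 10 highest genes was among the 10 highest there, where the filter again asks for detection in more cells.

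**Figure D5:**
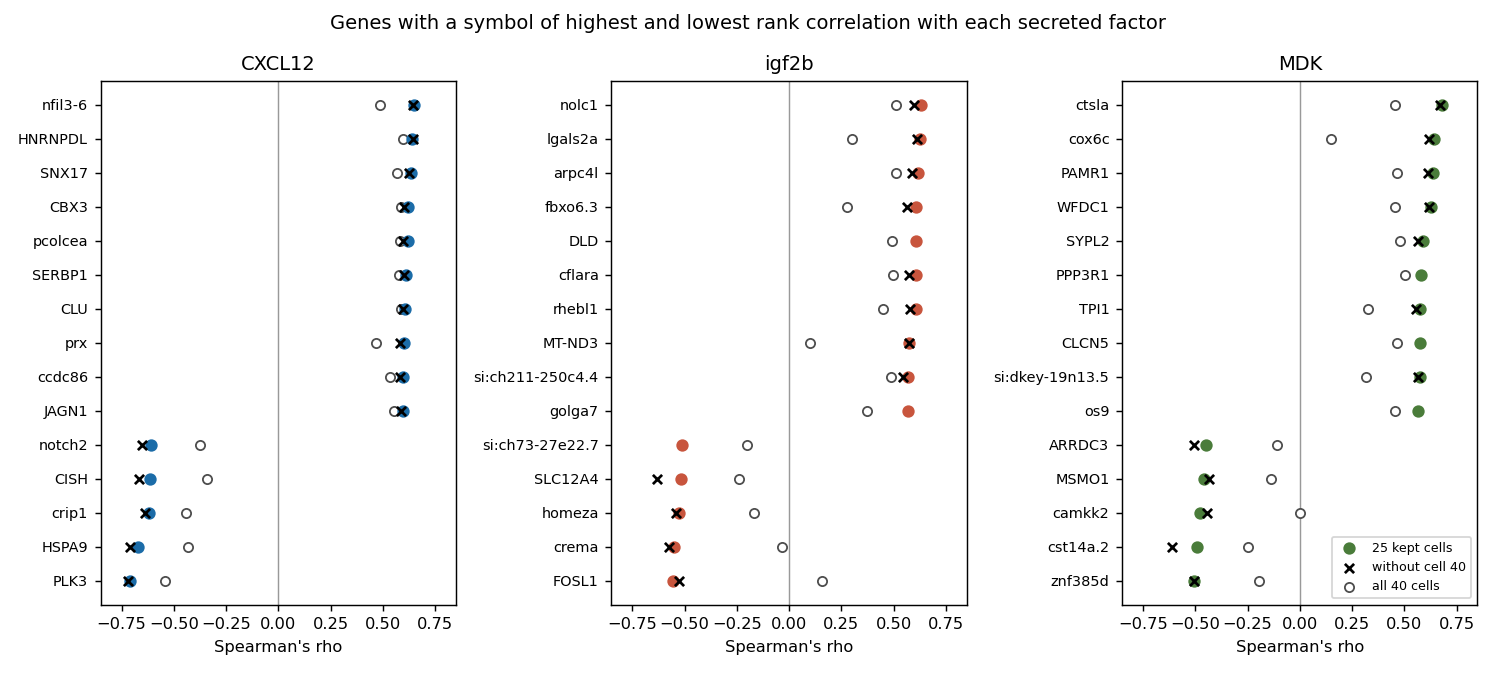
Spearman's rho of the 10 most and 5 least alike genes that have a symbol with each member, over the 25 kept cells (filled), without cell 40 (crosses, absent where the gene no longer passed the filter) and over all 40 cells (open). For the 10 highest genes of CXCL12 the values over all cells are 0.466 to 0.596, each lower than over kept cells. Several of igf2b and MDK move further towards 0 over all cells.

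No member followed the general markers of the sorted cells closely. With TCF21 the rho over kept cells was 0.194 for CXCL12, 0.150 for igf2b and 0.361 for MDK, and with the summed share of 14 fibroblast marker genes it was 0.214, 0.095 and 0.109. With the 15 epicardial marker genes it was -0.133, 0.211 and 0.211. With TBX18, a gene of the epicardial list, it was 0.263, 0.202 and 0.223, and with the mural list 0.303, -0.152 and 0.109. The median share of reads was 2.01% for the fibroblast genes and 0.438% for the epicardial genes. The rho of MDK with the cardiomyocyte list, whose median share of reads was 0.000802%, was 0.435 over kept cells, 0.323 without cells 11, 18 and 40, and 0.122 over all 40 cells. Over all 40 cells the rho with the fibroblast, mural and epicardial lists was 0.374, 0.336 and 0.278 for MDK. It was 0.348, 0.155 and 0.272 for igf2b and 0.297, 0.178 and 0.046 for CXCL12. The part of RNA from other cells in the levels of any member was not tested. Endothelial markers, at a median of 0% and at most 0.162% in cell 26, had a rho of at most 0.165 with any member.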

How the data were processed

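Per the submitters' processing notes the authors used Bowtie2 and RSEM 1.2.12 with the genome build Zv9. What each tool did is not given in the sources used here. The deposited table holds expected counts per gene, estimated reads that need not be whole, for 33737 genes in 40 cells. Such estimates share reads out between similar copies of a gene. No molecular identifiers are named, so intervals cover the counting of cells only.

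Counts were scaled here to CPM with Python 3.11.15, pandas 2.3.3 and scipy 1.17.1. Symbols came from a supplied gene name table (21939 of 33737 rows matched). A list symbol took the first match found: as written, in any case, or shorn of its copy letter. The symbols found were 8 of 10 for the CXCL12 pathway and 14 of 32 for other chemokines. They were 14 of 14 for insulin-like growth factors, 19 of 23 for IGF binding and 14 of 23 for midkine. Genes whose symbols were not found are not covered. In a RefSeq table of assembly GRCz12tu igf2a and igf2b are each listed as a synonym of the other, so the identifier decides. Doublets were not called, as 40 libraries do not allow it.

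Genes named are the members, their copies, genes of the pathway lists, and the 10 genes with a symbol of highest and the 5 of lowest rho for each member. The members and lists were chosen with earlier results of these data known. ALDH1A2, podxl and TCF21 fall outside that rule, as do the markers. The ranking was also run on simulated data. No outcome of that run is given here, so it is not support for the genes ranked in the real cells. Alternatives were other detection levels, cell sets, scalings and correlations.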

Additional observations from a re-analysis of the deposited data

How the results depend on the processing

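The count of reads that defines detection moved the shares of cells most. With any read above 0, CXCL12 was found in 84.0% of kept cells, igf2b in 88.0%, MDK in 100%, all 3 in 76.0% and no member in 0% (Wilson upper limit 13.3%). At 50 CPM the shares were 44.0% for CXCL12, 68.0% for MDK and 12% for all 3. The other 27 of 35 alternative shares stayed within the 95% interval of the reported one. Over all 40 cells the correlation changed sign for CXCL12 and igf2b (0.062) and for igf2b and MDK (0.213). Over the alternatives the mean level lay between 477.5 and 706.7 CPM for CXCL12, 189.1 and 338.1 CPM for igf2b and 405.0 and 512.9 CPM for MDK, and the SD between cells exceeds each mean, so it sets no useful limit on such shifts. Without cells 11, 18 and 40 the shares at 5 reads were 59.1% for CXCL12, 63.6% for igf2b, 90.9% for MDK and 31.8% for all 3. The 10 genes most like CXCL12 were still among the 10 highest in 6 cases over all 40 cells and in 5 by Pearson correlation of log2(CPM + 1). For igf2b these counts were 0 and 4, and for MDK 0 and 5. Over all 40 cells the filter asks for detection in more cells, so a gene can be missing there without a lower rho. For MDK the count was also 5 with median-of-ratios scaling or no filter on low genes and 6 without cells 11, 18 and 40, and for igf2b 6 with no such filter. At 50 CPM the genes seen in 10% or more of kept cells fell from 2 to 1 for the CXCL12 pathway, from 5 to 3 for other chemokines and from 5 to 1 for IGF binding. Over all 40 cells these counts were 1, 4 and 3. No paired analysis was possible because there is 1 group. Leaving out the highest cell, chosen after seeing the data, gave means of 567.2 CPM for CXCL12, 189.1 CPM for igf2b and 405.0 CPM for MDK.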
